A study of Mus musculus with 15 samples.

Results

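The 8 genes described here, Pdk4, Ucp3, Ucp2, Angptl4, Acot1, Acot2, Plin5 and Txnip, are genes that rise in heart or skeletal muscle when fat replaces glucose as fuel. They were chosen by symbol, through the accession each array probe carries, and 11 of the 41174 non-control probes on the array measured them, so that 8 of the 18350 named genes are covered. A gene with several probes is given by the brightest of those tested, and all 8 chosen probes were well above background on 15 of 15 arrays. Ucp2 had 2 tested probes and Txnip 2, and 1 further Ucp2 probe was above background on 1 array and was not tested.

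Hearts came from C57BL/6 mice that entered the study as young adults and received weekly intraperitoneal injections for 5 months. Methamphetamine (meth) mice received a dose that rose to 40 mg/kg at week 20, and control mice received phosphate-buffered saline (PBS) on the same schedule. There were 4 male meth, 4 male PBS, 4 female meth and 3 female PBS hearts, with 1 mouse on each array. Each male group held 2 mice of trial 1 and 2 of trial 2, and all females belong to trial 1 by their titles, although another label field places 3 of them in trial 2. The male meth mice are survivors, since males died during treatment in this model. Neither the feeding state nor the hour at which the mice were killed is given in the sources used here.

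PPARα is a nuclear receptor that binds fatty acids and, paired with a retinoid X receptor, switches on genes of fat uptake and oxidation. In fasting, fatty acids released from adipose tissue reach the heart and raise its target genes, among them Pdk4. The Pdk4 kinase inhibits pyruvate dehydrogenase by phosphorylating it, which limits the oxidation of pyruvate. Fasting also acts through FOXO factors and the glucocorticoid receptor, and many of the same genes follow the daily feeding and clock cycle.

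The question for these genes was whether long meth treatment moved a fasting-type programme in the heart, and whether males and females differed. No member passed the threshold between meth and PBS hearts in either sex. The member with the largest shift when both sexes were averaged was Acot1, which was lower in meth hearts by a log2 value that did not pass. In males the shifts were unequal between the 2 trials, with Pdk4 and Acot1 well below the PBS level in trial 2 and nearer to it in trial 1, but the difference of the trials passed for no member. Over both treatments Angptl4 and Acot2 passed as higher in male than in female hearts, calls that did not hold with slide as a fixed block, without slide 4 or without any of 3 single arrays. The sizes of these differences rest on the trial 1 males, since all females belong to trial 1 by title. In PBS hearts 7 of 8 members lay higher in males than in females, beside 7444 of all 14220 genes tested. Values below are log2 signals relative to the 75th percentile of each array, so that a difference of 1 is a 2-fold change.

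The members lie on 5 chromosomes of GRCm38.p6. Pdk4 spans chr6:5483351-5496278, Angptl4 chr17:33774900-33781575, Plin5 chr17:56111597-56117606 and Txnip chr3:96557957-96561857. Ucp3 (chr7:100472991-100486432) and Ucp2 (chr7:100493337-100499629) are neighbours with 6904 bases between them, and so are Acot2 (chr12:83987861-83993877) and Acot1 (chr12:84009502-84017670), with 15624 bases between them. Acot1 and Acot2 are close relatives by sequence, so that RNA of one may bind in part to the probe of the other, and their values are uncertain to that extent.

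PPARα, FOXO and glucocorticoid receptor act through short motifs near such genes. Upstream sequence is shown for Pdk4, Acot1 and Acot2, whose levels are compared below, and for Ucp3 and Txnip, whose windows hold motifs of these factors. RefSeq windows of 250 bases before the start were found for 7 of the 8 members, and none was found for Angptl4, and 6 motifs were searched on both strands in these and in 32851 windows of all genes. They were the PPAR response element, which is 2 copies of AGGTCA with 1 base of any kind between them, its half-site AGGTCA, the FOXO site GTAAACA, the glucocorticoid response element, which is GNACA and TGTNC with 3 bases of any kind between them, the E-box CACGTG bound by clock factors and the CCAAT box CCAAT. Capitals mark every match, and the half-site is by its letters also contained in the PPAR response element.
Txnip (chr3:96557707-96557956, plus strand): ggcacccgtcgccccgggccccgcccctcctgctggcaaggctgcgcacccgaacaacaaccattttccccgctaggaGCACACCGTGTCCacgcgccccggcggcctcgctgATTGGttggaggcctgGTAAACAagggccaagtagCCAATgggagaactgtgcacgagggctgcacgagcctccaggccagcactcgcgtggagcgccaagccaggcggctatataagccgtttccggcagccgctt
Ucp3 (chr7:100472741-100472990, plus strand): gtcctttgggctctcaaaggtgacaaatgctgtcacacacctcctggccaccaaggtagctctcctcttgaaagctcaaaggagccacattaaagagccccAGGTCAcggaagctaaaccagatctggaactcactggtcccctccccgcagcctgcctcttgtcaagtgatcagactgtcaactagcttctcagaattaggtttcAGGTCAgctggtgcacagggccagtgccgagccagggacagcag
Pdk4 (chr6:5496279-5496528, minus strand): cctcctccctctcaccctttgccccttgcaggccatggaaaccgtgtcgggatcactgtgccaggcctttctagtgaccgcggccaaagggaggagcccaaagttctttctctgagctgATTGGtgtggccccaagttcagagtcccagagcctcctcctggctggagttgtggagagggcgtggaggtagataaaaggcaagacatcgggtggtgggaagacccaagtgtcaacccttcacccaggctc
Acot1 (chr12:84009252-84009501, plus strand): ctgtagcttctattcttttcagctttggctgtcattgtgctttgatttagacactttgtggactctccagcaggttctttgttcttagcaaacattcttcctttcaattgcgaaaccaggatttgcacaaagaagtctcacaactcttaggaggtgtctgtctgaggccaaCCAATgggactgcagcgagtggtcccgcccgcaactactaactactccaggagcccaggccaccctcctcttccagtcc
Acot2 (chr12:83987611-83987860, plus strand): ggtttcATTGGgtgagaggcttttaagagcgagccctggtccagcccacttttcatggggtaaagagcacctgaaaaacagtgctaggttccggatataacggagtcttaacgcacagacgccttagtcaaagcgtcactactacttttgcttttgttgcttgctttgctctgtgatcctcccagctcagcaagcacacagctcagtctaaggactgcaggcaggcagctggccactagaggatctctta

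The full PPAR response element was in none of the 7 members' windows and in 0.0335% of all windows. The half-site AGGTCA lay 149 and 44 bases before the start of Ucp3 and 170 bases before that of Plin5, against 14% of all windows. Txnip, the thioredoxin-binding protein that restrains glucose uptake, held the FOXO letters 121 bases and the glucocorticoid letters 172 bases before its start, which 3.17% and 0.387% of all windows hold. The CCAAT box or its complement was in the windows of 5 members (Acot1, Acot2, Pdk4, Plin5 and Txnip) and in 33.8% of all windows, and the E-box was in none of the members' and 6.02% of all windows. The Acot1 and Acot2 windows were identical at 148 of 205 aligned bases, or 72.2%. A match is a description of letters, and binding was not measured.

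The arrays lay on 4 slides scanned in 3 sessions. Slides 1 and 2 each held 1 trial 1 mouse of each of the 4 groups, all trial 2 males shared slide 3, and the other 3 females (meth replicates 3 and 4 and PBS replicate 3) shared slide 4. The arrays' 75th percentiles ran from 323 to 618 in signal units, with the highest on slide 4. All 10 cardiomyocyte markers were well above background in every group. Markers of other tissues were also present and moved with treatment: the summed level of 9 airway and lung markers was 23.4 to 142 in male meth hearts, 0.329 to 0.436 in male PBS, 0.877 to 2.92 in female meth and 1.59 to 3.45 in female PBS hearts. The summed level of 7 white fat markers was 35.9 to 181 in male meth, 20.1 to 62.7 in male PBS, 67.6 to 103 in female meth and 28.3 to 36.6 in female PBS hearts. Of these markers Adipoq, Cfd, Retn, Plin1, Cidec and Lipe were well above background on every array, and Lep on 1 array of the 15. Plin5, Angptl4 and Pdk4 are also expressed in fat, and the part of these tissues in the members' values was not tested. In whole hearts fewer cells of a type and less RNA per cell cannot be told apart.

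**Figure D1:**
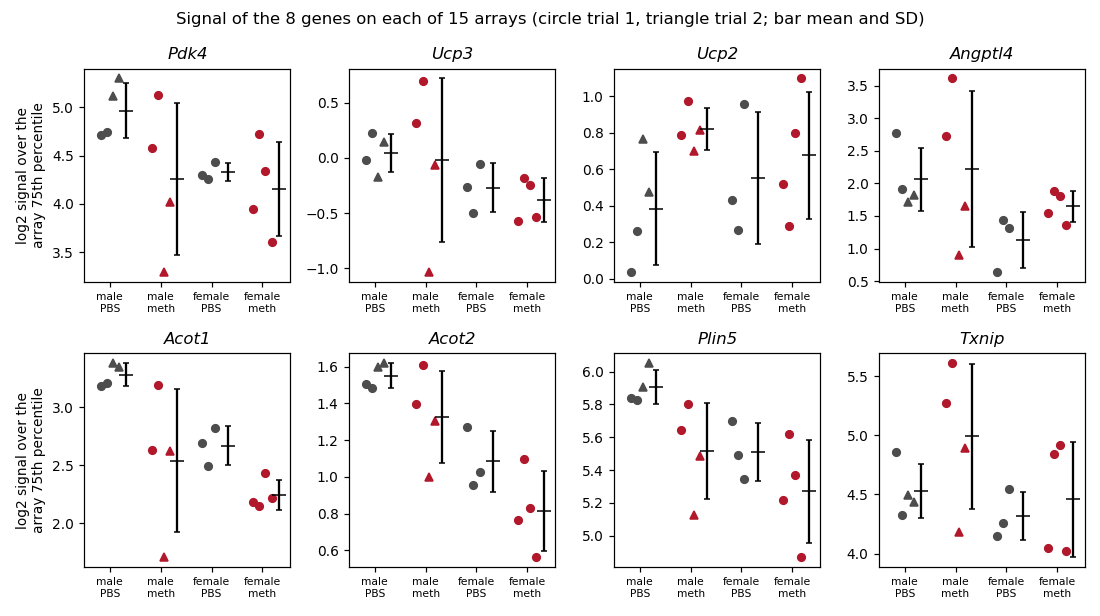
Each panel plots 1 gene, with the log2 signal relative to the array's 75th percentile on the vertical axis and the 4 groups along the horizontal axis. Each point is 1 mouse (grey PBS, red meth, circle trial 1, triangle trial 2), and the bar gives the mean and SD of the group (n = 4, or 3 for female PBS). For 7 of the 8 genes the male meth points spread wider than the male PBS points, as they did for 54.1% of all probes, and the exception is Ucp2.

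Pdk4, the pyruvate dehydrogenase kinase, had log2 signals of 4.58 and 5.13 in the male meth hearts of trial 1 and 3.29 and 4.02 in those of trial 2. Male PBS hearts had 4.71 and 4.74 in trial 1 and 5.11 and 5.30 in trial 2. The female meth values were 3.94, 4.72, 4.34 and 3.60, and the female PBS values 4.30, 4.26 and 4.44. Thus the meth groups bracketed the PBS levels in females, and in males 3 of 4 meth hearts lay below every PBS heart. The difference of meth and PBS means was -0.71 in males (SE 0.33, unadjusted p = 0.0501 and adjusted p = 0.39 by limma) and -0.18 in females (SE 0.35, adjusted p = 0.925). Neither passed after adjustment over all probes.

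Acot1, a cytosolic thioesterase that splits acyl-CoA and is among the genes most induced by PPARα, stood at 2.63 and 3.19 in trial 1 and 1.71 and 2.62 in trial 2 male meth hearts, against 3.18, 3.21, 3.38 and 3.35 in male PBS hearts. Female meth hearts had 2.19, 2.15, 2.43 and 2.22 and female PBS hearts 2.69, 2.49 and 2.82. Every female meth heart was below every female PBS heart, which 5.93% of all probes showed, and in males only replicate 2 of trial 1 reached the PBS range. The difference was -0.74 in males (SE 0.22, adjusted p = 0.158 by limma) and -0.42 in females (SE 0.23, adjusted p = 0.566). By exact permutation of the arrays, two-sided, p was 0.0571 in each sex. The mean of both sexes was -0.58 (SE 0.16, adjusted p = 0.0806). It passed when slide was a random block (-0.59, adjusted p = 0.0443) and when male meth trial 1 replicate 2 was left out (-0.68, adjusted p = 0.033), but not with slide as a fixed block (adjusted p = 0.0807), with scan session as a block (0.0603), with array weights (0.0757) or without slide 4 (0.215). Without male meth trial 2 replicate 1 the mean was -0.44 and the male value -0.47, and with trial 1 arrays alone the mean was -0.35.

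Acot2, the mitochondrial relative of Acot1, had 1.40, 1.61, 1.00 and 1.31 in male meth and 1.50, 1.48, 1.60 and 1.62 in male PBS hearts, trial 1 before trial 2. In females it had 0.76, 1.1, 0.83 and 0.56 with meth and 1.27, 0.96 and 1.03 with PBS. The groups overlapped in both sexes. Males differed by -0.22 (adjusted p = 0.522) and females by -0.27 (adjusted p = 0.537), and neither value passed.

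Plin5, which coats lipid droplets in oxidative muscle and links them to mitochondria, was 5.65, 5.80, 5.13 and 5.49 in male meth hearts and 5.84, 5.83, 5.91 and 6.05 in male PBS hearts. All 4 male meth hearts were below all 4 male PBS hearts, a separation that 5.17% of all probes showed in that direction. In females Plin5 was 5.22, 5.62, 5.37 and 4.87 with meth and 5.70, 5.49 and 5.34 with PBS, and the groups overlapped. The difference was -0.39 in males (SE 0.16, adjusted p = 0.336 by limma) and -0.24 in females (SE 0.18, adjusted p = 0.707). Without the fit, the exact permutation p for males was 0.0286, the smallest that 4 against 4 arrays allow two-sided.

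Angptl4, a secreted inhibitor of lipoprotein lipase, had the widest range of the 8. Male meth hearts had 2.73 and 3.61 in trial 1 and 0.89 and 1.65 in trial 2, and male PBS hearts 2.78, 1.92, 1.72 and 1.83. Female meth hearts had 1.54, 1.88, 1.80 and 1.36 and female PBS hearts 0.64, 1.44 and 1.31. The male meth hearts thus lay on both sides of the PBS hearts, and 3 of 4 female meth hearts lay above every female PBS heart. The differences were 0.16 in males (SE 0.32, adjusted p = 0.885) and 0.51 in females (SE 0.35, adjusted p = 0.661).

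The uncoupling proteins Ucp3 and Ucp2 sit in the inner mitochondrial membrane and both rise with fatty acid supply, Ucp3 mainly in muscle and Ucp2 in many cell types. Ucp3 was 0.32, 0.69, -1.04 and -0.07 in male meth and -0.02, 0.22, -0.17 and 0.14 in male PBS hearts, and its female values were -0.57, -0.19, -0.24 and -0.54 with meth and -0.26, -0.50 and -0.05 with PBS. Its meth and PBS groups overlapped in both sexes, with differences of -0.07 (adjusted p = 0.942) and -0.11 (adjusted p = 0.938). Ucp2 was 0.79, 0.98, 0.70 and 0.82 in male meth and 0.04, 0.26, 0.77 and 0.47 in male PBS hearts, with 3 of 4 meth hearts above every PBS heart. Its difference of 0.44 in males (SE 0.20, adjusted p = 0.378) was 0.45 on its second probe (adjusted p = 0.163). In females Ucp2 was 0.52, 0.29, 0.80 and 1.1 with meth and 0.43, 0.27 and 0.96 with PBS, a difference of 0.13 (adjusted p = 0.909).

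Txnip was 5.27 and 5.61 in trial 1 and 4.18 and 4.89 in trial 2 male meth hearts, and 4.86, 4.33, 4.50 and 4.44 in male PBS hearts. Female meth hearts had 4.05, 4.84, 4.92 and 4.03 and female PBS hearts 4.15, 4.26 and 4.55. In males 3 of 4 meth hearts lay above every PBS heart and 1 below all of them. Males differed by 0.46 (adjusted p = 0.491) and females by 0.14 (adjusted p = 0.925), and the second probe gave 0.44 and 0.03.

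Counted together, 0 of 8 members passed in males, where 1.11% of the 28358 probes tested did, and 0 of 8 passed in females, where 0.758% did. At an unadjusted limma p under 0.05, 3 of 8 were past it in males (Acot1 and Plin5 lower, Ucp2 higher), against 12.8% of probes, and 0 of 8 in females, against 11% of probes. The median difference of the 8 was -0.14 in males and -0.15 in females, beside -0.02 and 0.03 over all 14220 genes tested. For the mean of both sexes 0 of 8 passed, against 2.65% of probes. The difference between the male and the female response passed for 0 of 8 members, against 0.138% of probes, and its widest interval was that of Pdk4, from -1.57 to 0.52 around -0.53. A sex difference of the response of that size could therefore not be detected or set aside with these arrays. When 200 of the 28358 probes were given a simulated log2 change of 1, the fit called 82.5% of them in males, 71% in females and 61.5% for the difference of the responses. The median error of the simulated estimates was 0.0665, 0.0826 and 0.121. The members' SEs ran from 0.13 (Acot2) to 0.33 (Pdk4) in males and from 0.14 to 0.35 in females. An SE is not the same measure as a median error, so the noise of members and simulated probes was not compared. These rates therefore cannot be carried over to the members.

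**Figure D2:**
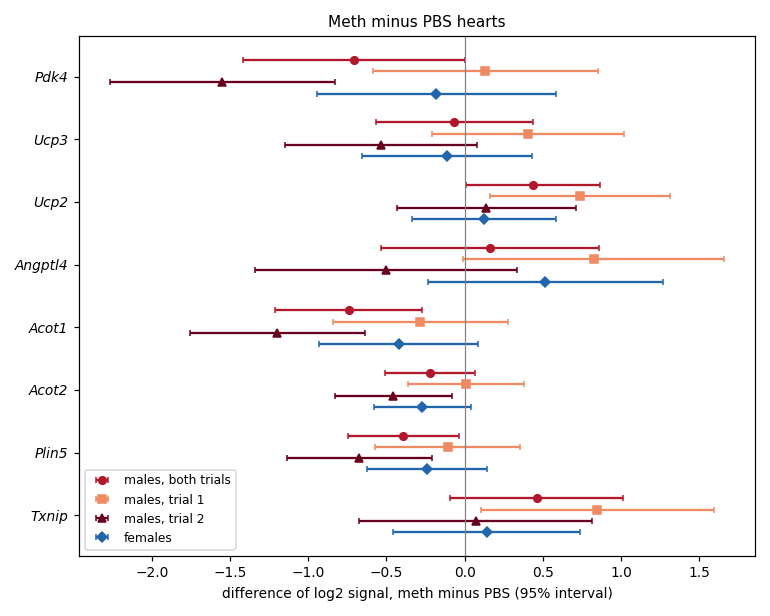
Difference of mean log2 signal, meth minus PBS, on the horizontal axis for each gene, with 95% intervals from the limma fits, for males of both trials, males of each trial and females. The trial 2 point lies left of the trial 1 point for all 8 genes, with Pdk4 at 0.13 in trial 1 and -1.55 in trial 2.

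The male response was then read within each trial, since the trials were run and scanned apart. In trial 1 (2 meth and 2 PBS hearts) 0 of 8 members passed, against 0.3% of probes, and in trial 2 0 of 8 passed, against 0.356% of probes. In trial 2 Pdk4 was lower in meth hearts by the largest amount, at -1.55 (SE 0.33, unadjusted p = 0.000572 and adjusted p = 0.0896 by limma), and Acot1 followed at -1.20 (SE 0.26, adjusted p = 0.0926). Plin5 was at -0.67, Ucp3 at -0.53, Angptl4 at -0.50 and Acot2 at -0.46, and Txnip (0.07) and Ucp2 (0.14) were slightly above 0. In trial 1 the same comparison gave 0.13 for Pdk4, -0.28 for Acot1, 0.82 for Angptl4, 0.85 for Txnip, 0.73 for Ucp2 and 0.40 for Ucp3. With slide as a random block Pdk4 (adjusted p = 0.0321) and Acot1 (adjusted p = 0.0395) passed in trial 2. With array weights, which let limma give less reliable arrays less influence, Pdk4, Acot1 and Plin5 passed in trial 2 and Ucp2 in trial 1.

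The difference of the 2 trials' responses was below 0 for 8 of 8 members, from -0.46 for Acot2 to -1.68 for Pdk4. It passed for 0 of 8, and for 0 of all 28358 probes by limma, of which 4.56% had an unadjusted p under 0.05. The smallest p among the members was that of Pdk4 (unadjusted p = 0.00378, adjusted p = 0.874 by limma). Acot1 (0.0274), Angptl4 (0.031) and Ucp3 (0.0368) also had an unadjusted limma p under 0.05. These 8 signs are not 8 independent observations, as the values of each array show. Male meth trial 1 replicate 2 had the highest value of its group for 8 of 8 members and trial 2 replicate 1 the lowest for 8 of 8, whereas these arrays were highest and lowest for 29% and 32.9% of all probes. These 2 hearts are named because of the members' own ranks, so a positive difference between them was fixed by that choice. The sizes are a description. Angptl4 differed by 2.72, Pdk4 by 1.84, Ucp3 by 1.73, Acot1 by 1.48 and Txnip by 1.43, each above at least 98% of the probes' differences. The other 3 members differed by 0.27 to 0.68, above 93.7% of probes for Plin5, 92.7% for Acot2 and 79.1% for Ucp2. The median over all probes, which were not chosen in this way, was 0.01.

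The spread among the male meth hearts was wider than among the male PBS hearts for 7 of 8 members. The ratio of the SDs was 6.23 for Acot1, 4.26 for Ucp3, 3.72 for Acot2 and between 2.47 and 2.82 for Plin5, Pdk4, Txnip and Angptl4, and it was 0.367 for Ucp2. Over all probes the median ratio was 1.07, and 54.1% of probes had a ratio above 1. The members were read on the same arrays, so their ratios are not independent observations. The tissue markers of the extreme hearts differed too: in trial 1 replicate 2 and trial 2 replicate 1 the airway sum was 142 and 23.4, the white fat sum 181 and 67.1, the brown fat sum 82.9 and 40.8, and the sum of 5 red blood cell markers 756 and 239. Meth minus PBS, the red blood cell markers lay above 0 for 5 of 5 genes in trial 1, with a median of 1.23, and below 0 for 5 of 5 in trial 2, with a median of -0.25, and 0 passed in either trial. The part of these tissues in the members' spread was not tested.

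**Figure D3:**
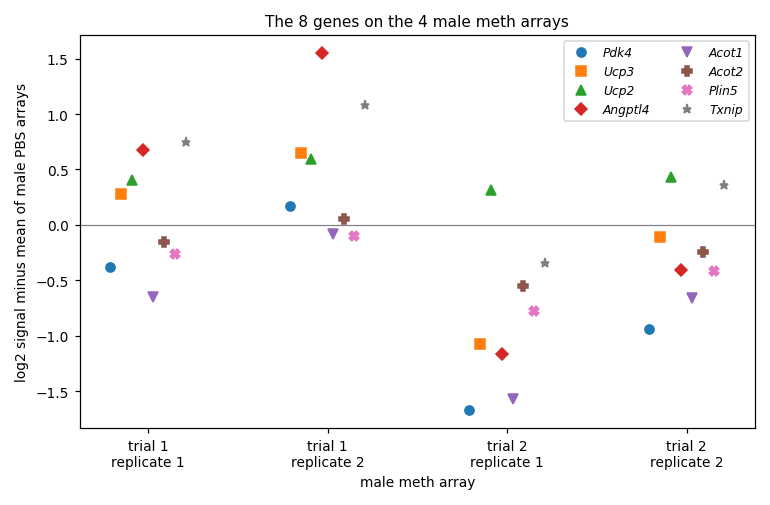
Log2 signal of each gene on the 4 male meth arrays, minus the mean of the 4 male PBS arrays, with 1 symbol for each gene and a line at 0. All 8 symbols are highest on trial 1 replicate 2 and lowest on trial 2 replicate 1, and Ucp2 stays above 0 on all 4 arrays.

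Across the 15 arrays the members' levels ran together to unequal degrees. As a description over arrays that share groups, trials and slides, Pearson's r between levels was 0.92 for Acot2 and Plin5, 0.90 for Pdk4 and Plin5, 0.85 for Pdk4 and Acot1, 0.84 for Angptl4 and Txnip and 0.81 for the neighbours Acot1 and Acot2. Ucp2 had r between -0.46 (with Plin5) and 0.20 (with Txnip) and 0.05 with its neighbour Ucp3. Among the other 7 members r was lowest for Acot1 and Txnip (0.32), Plin5 and Txnip (0.41) and Angptl4 and Plin5 (0.46). On deviations from the group means Ucp2 did not stand apart for every member, since Acot1 had r = 0.40 with Ucp2 and 0.34 with Plin5. Outside the 8 genes, the patterns most like that of Plin5 were Abcb9 (r = 0.97), Pde4a (0.95) and Ttc30a1 (0.95), and those most like Acot2 were Abcd3 (0.94), a peroxisomal transporter of fatty acyl-CoA, Mrps5 (0.94) and Asxl1 (0.94). Fbp2 (0.93) was nearest to Acot1, Ahcyl1 (0.91) to Angptl4, Crhr2 (0.89) to Pdk4, Arrdc2 (0.89) to Ucp2 and Naprt (0.86) to Txnip.

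Male and female hearts were compared within each treatment. All females belong to trial 1 by title, and the fit removes 1 trial effect, taken as equal in meth and PBS hearts, before it sets males against females. In PBS hearts 7 of 8 members were higher in males, from 0.47 for Plin5 and Txnip to 1.55 for Angptl4, and Ucp2 was at -0.25. None of the 8 passed, against 0.48% of probes, and Angptl4 came nearest (SE 0.38, adjusted p = 0.10 by limma). For Pdk4, Angptl4, Acot1, Acot2 and Plin5 every one of the 4 male PBS hearts was above every one of the 3 female PBS hearts, which 6.82% of all probes showed in that direction, and the exact permutation p of each was 0.0571. In meth hearts 8 of 8 members were higher in males, beside 6689 of all 14220 genes tested, and 0 passed, against 2.62% of probes. By limma Angptl4 was at 1.20 (adjusted p = 0.101), Txnip at 0.79 (adjusted p = 0.17), Ucp3 at 0.66 (adjusted p = 0.204) and Acot2 at 0.57 (adjusted p = 0.065). These values within a treatment turn on how the trial is handled. With trial 1 arrays alone Angptl4 was higher in males by 1.22 in PBS and 1.53 in meth hearts and Pdk4 by 0.39 and 0.71, where the fit gave Pdk4 0.81 and 0.29, and without the trial term Angptl4 was at 0.93 and 0.58. The order of PBS and meth hearts was thus not the same under these settings, and no order is read from it.

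Over both treatments, a comparison added after the data were seen, 2 of 8 members passed, against 3.56% of probes. Angptl4 was higher in males by 1.37 (SE 0.28, adjusted p = 0.0233 by limma) and Acot2 by 0.55 (SE 0.12, adjusted p = 0.0269). Since all females belong to trial 1 by title, the trial term makes these differences rest on the 4 trial 1 males. Trial 2 males enter only through the estimate of the spread. With trial 1 arrays alone the members' differences were therefore the same by construction, which is no second support. With the spread of those arrays Angptl4 (adjusted p = 0.0274), Acot1 (0.0411), Ucp3 (0.0434) and Acot2 (0.0436) passed. For Angptl4, Acot2 and Ucp3 all 4 trial 1 males lay above all 7 females, which 2.44% of probes showed. Ucp3 (0.63, adjusted p = 0.106), Acot1 (0.60, adjusted p = 0.102), Txnip (0.63, adjusted p = 0.137), Plin5 (0.39, adjusted p = 0.149) and Pdk4 (0.55, adjusted p = 0.285) were also above 0. Within slides 1 and 2, where each sex and treatment had 1 array, Angptl4 was higher in the male by 2.14 and 0.48 in PBS and by 1.19 and 1.74 in meth hearts, and Acot2 by 0.23 and 0.53 in PBS and by 0.63 and 0.51 in meth hearts. The sizes thus stayed above 0 on every slide, but the 2 calls did not hold with slide as a fixed block (Angptl4 1.39 with adjusted p = 0.053, Acot2 0.48 with adjusted p = 0.0724), nor without slide 4. Leaving out male PBS trial 1 replicate 1, male meth trial 1 replicate 1 or male meth trial 1 replicate 2 also took away both calls, with Angptl4 at 1.33, 1.42 and 1.06 and Acot2 at 0.59, 0.54 and 0.46, and leaving out female PBS replicate 2 or 3 took away that of Acot2 alone. Without the trial term, where trial 2 males count equally, Angptl4 was higher by 0.75 (adjusted p = 0.196) and Acot2 by 0.49 (adjusted p = 0.0145). Fat markers were also higher in males over both treatments in the main fit. White fat markers were above 0 for 5 of 6 tested genes (median 0.85, 1 passed) and brown fat markers for 6 of 7 (median 0.69, 2 passed). Of all 14220 genes 7130 were above 0. The part of fat in the members' sex differences was not tested.

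**Figure D4:**
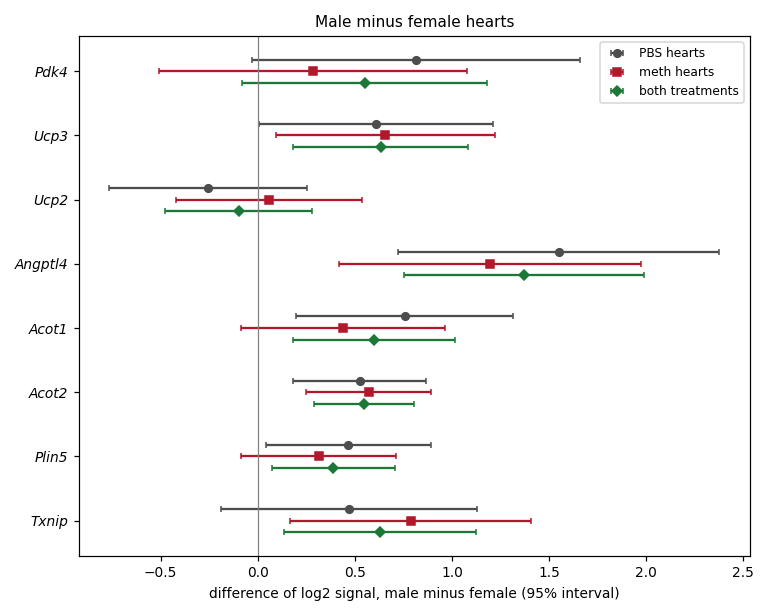
Difference of mean log2 signal, male minus female, on the horizontal axis for each gene, with 95% intervals from the limma fit, in PBS hearts, in meth hearts and over both treatments. Angptl4 lies farthest right, at 1.55 in PBS and 1.20 in meth hearts, values that rest on a trial effect taken as equal in both treatments, and Ucp2 is the gene nearest to 0 or below it.

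Of 32 other PPARα target genes, which carry out fatty acid uptake, transport and oxidation, 30 were tested. None passed in males or in females. In males 24 of the 30 were below 0 and 6 above 0, with a median of -0.16, while 6386 of all 14220 genes were above 0. In females 18 of the 30 were above 0 with a median of 0.04, near the 8327 of all 14220 genes above 0 and their median of 0.03. For the mean of both sexes Aqp7, a channel for glycerol, fell by 0.39 (adjusted p = 0.0479), against 1.52% of probes that fell, and no other gene of the list passed. The Aqp7 call was lost in 13 of the 15 fits that left out 1 array, and with slide as a fixed block. Between the sexes 28 of the 30 were higher in male PBS hearts, with a median of 0.36 beside 0.01 over all genes, and none passed. Over both treatments 6 passed as higher in males and 1, Creb3l3, as lower (-1.21, adjusted p = 0.016), where 3.56% of probes passed in either direction. With slide as a fixed block 3 were higher and 2 lower, without slide 4 3 and 1, and with slides 1 and 2 alone 0 and 0. Leaving out 1 array gave 0 to 12 higher, with 0 without male PBS trial 1 replicate 1 or male meth trial 1 replicate 2 and 12 without female meth replicate 2. Among the 6, chosen for naming after its values were seen, was Slc25a20, the carnitine carrier (0.46, adjusted p = 0.0145). The cardiomyocyte markers were also higher in male PBS hearts for 9 of 10 genes, with a median of 0.19. Over both treatments the liver markers were lower in males for 6 of 6 tested genes, with a median of -1.83, and 3 passed. Among them Alb was well above background on 4 female meth, 3 female PBS and 0 male arrays. The part of liver RNA in the Creb3l3 value was not tested.

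The receptors themselves did not pass. Of 15 PPAR receptors and cofactors, 0 passed in either sex or in the mean of both, with medians of -0.12 in males and 0.02 in females. Ppara was at -0.12 (adjusted p = 0.774) in males and at 0.26 (adjusted p = 0.554) in females, and it was at -0.05 (adjusted p = 0.898) between male and female PBS hearts. Ppargc1a, the coactivator of the same genes, was at -0.26 (adjusted p = 0.438) and -0.19 (adjusted p = 0.724). The tested family relatives (20 of 25) and the thioredoxin and glucose sensing genes (12 of 12) had 0 genes past the threshold in these 3 comparisons.

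The FOXO and glucocorticoid genes of fasting had more calls by treatment than the other pathway lists outside the clock. Of 26 genes 23 were tested, and 3 rose in males, against 0.8% of probes that rose: Foxo3, a FOXO factor (0.98, adjusted p = 0.0259), Mt2, a metallothionein (0.90, adjusted p = 0.0259), and Tsc22d3, a glucocorticoid-induced leucine zipper protein (0.53, adjusted p = 0.0282). In females Pik3r1, a regulatory subunit of PI3 kinase, rose by 0.37 (adjusted p = 0.0459), against 0.205% of probes that rose. This female call was lost in each of the 15 fits that left out 1 array and in the paired fit with a replicate block (adjusted p = 0.0924). That fit treats female arrays of the same number as pairs, and these arrays also share a slide. In males the call was lost in 7 of these 15 fits for Foxo3, 6 for Mt2 and 5 for Tsc22d3, and with normexp background correction Foxo3 was at 0.21. In the mean of both sexes 5 rose, against 1.12% of probes. They included Mt2 (0.80, adjusted p = 0.00535), Foxo3 (0.65, adjusted p = 0.0243), Tsc22d3 (0.47, adjusted p = 0.00661) and Cebpd, a transcription factor (0.37, adjusted p = 0.035). Errfi1, an inhibitor of EGF receptor signalling, fell by 0.27 (adjusted p = 0.0221). Of the 15 fits that left out 1 array, the call in the mean was lost in 10 for Cebpd, 3 for Foxo3 and 1 for Errfi1, and in 0 for Mt2 and Tsc22d3. These lists were written with earlier results of the data known, so their counts are no independent evidence.

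Clock genes moved with treatment in the same hearts. Of 10 genes out of phase with Arntl, 7 rose in males and 2 in females, against 0.8% and 0.205% of all probes that rose. Among them by limma were Per2 (1.97, adjusted p = 0.00187, and 2.04, adjusted p = 0.00695) and Ciart in males (3.18, adjusted p = 0.00246). Arntl itself, the core activator of the clock, fell by 2.40 in males (adjusted p = 0.00521) and by 1.81 in females (adjusted p = 0.0444). The summed level of the 10 genes out of phase was 97.0 and 98.1 in trial 1 and 84.6 and 91.7 in trial 2 male meth hearts. It was 62.3 and 59.2 in trial 1 but 23.7 and 23.4 in trial 2 male PBS hearts. It was 71.5 to 83.9 in female meth and 33.1 to 42.6 in female PBS hearts. The clock sum of meth and PBS hearts was thus farther apart in trial 2, mostly through the PBS hearts. Pdk4 and Acot1 differed between the trials mostly in meth hearts. The Pdk4 means of trials 1 and 2 were 4.86 and 3.66 in male meth and 4.73 and 5.21 in male PBS hearts. Those of Acot1 were 2.91 and 2.17 in male meth and 3.20 and 3.36 in male PBS hearts. The part of the clock or of the hour of killing in the members' values was not tested, and trial, slide and scan session cannot be told apart in trial 2.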

How the data were processed

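RNA of 15 mouse hearts was measured on Agilent 1-colour arrays, 1 mouse to an array. The authors labelled it with Cy3, scanned the slides and extracted background-subtracted intensities, which they deposited without normalization between arrays. The labels name Feature Extraction 9.1 and the file headers 10.5.1.1. A deposited table of log2 values, which equals the log2 signal plus a constant for each array, was used as an alternative. No spot was saturated, and 61.3% to 71.4% of probes were well above background. The number of arrays limits the precision.

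Control spots were left out, spots called outliers by the software were dropped, and the spots of a probe were averaged on the log2 scale and shifted by the array's 75th percentile. Testing covered the 28358 probes that were well above background on 3 or more of the 15 arrays, and was done with limma 3.58.1 in R 4.3.3 (lmFit and eBayes) on all arrays, with 4 groups and the trial as terms. A second fit had the male groups split by trial. Tests were two-sided. The Benjamini-Hochberg adjustment ran over the whole set of tested probes, and an adjusted p under 0.05 counted as passing. Exact permutation tests went through all regroupings of the arrays. Probes were named through RefSeq accessions, and a gene is given by its tested probe with the highest mean signal. The fit was tested on simulated data. Sequences and coordinates are from RefSeq GRCm38.p6.

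Members and gene lists were chosen with earlier results of these data known. Genes named from a list are those past the threshold in males, in females or in the mean of both, at most the 4 largest in each comparison, and others are said to have been chosen later. The other lists held markers of cardiomyocytes, white and brown fat, skeletal muscle, liver, airway and lung, leukocytes and red blood cells.

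Replicate numbers were checked as pairs by correlating, over 23808 probes, how far meth and PBS arrays of the same number lay from the mean of their groups. In females r was 0.30, 0.44 and 0.66, and the arrays of a number share a slide, so a pair of mice cannot be told from a slide. In males each trial held 2 numbers, whose deviations mirror each other and give 1 value, -0.09 in trial 1 and 0.01 in trial 2. Arrays of a number share a slide there too, but these values cannot settle whether male numbers pair arrays, and they were not taken as pairs. Normexp background correction used the median pixel signal, since the files hold no mean pixel signal. Whether replicates came from separate cages or days is not given in the sources used here. Some results are not reported here.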

Additional observations from a re-analysis of the deposited data

How the results depend on the processing

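Of 88 member results, 63 kept their direction under every alternative that was run, and the 25 others changed sign under at least 1. Every change of sign concerned a result that was not past the threshold in the fit reported. The number of members past the threshold between meth and PBS hearts was 0 in females under all alternatives. In males it was 1 with array weights (Acot1) and 0 otherwise. The paired fit, with a replicate block, called 0 of 8 members in every meth against PBS comparison and so changed no call of a member, and it took the genes past the threshold in the pathway lists other than the clock from 3 to 0 in males, whose numbers were not taken as pairs, and from 1 to 0 in females. Depth on arrays is signal over background, which did not limit the 8 probes. The cause of these changes was not tested.

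With trial 1 arrays alone or slides 1 and 2 alone, the male differences became 0.13 for Pdk4, 0.40 for Ucp3 and 0.0083 for Acot2. With trial 1 arrays alone, the male response minus the female response became 0.31 for Pdk4 and Angptl4, 0.14 for Acot1 and 0.13 for Plin5, and the mean of both sexes 0.15 for Ucp3. With slides 1 and 2 alone these were 0.079 for Pdk4, 0.15 for Angptl4, 0.14 for Acot1 and 0.064 for Plin5, with means of both sexes of 0.092 for Pdk4 and 0.20 for Ucp3. Without slide 4 and with slides 1 and 2 alone, the female differences were 0.053 for Pdk4 and 0.0011 for Ucp3. Without slide 4, the male response minus the female response was -0.066 for Ucp3 and -0.041 for Acot2. With a replicate block it was -0.0030 for Ucp3 and -0.037 for Acot2, and the female differences were 0.0027 for Pdk4 and -0.016 for Ucp2, the same as in the methods' paired test. With a shift by the median, the male response minus the female response was -0.060 for Ucp3 and -0.061 for Acot2, and Acot2 in trial 1 was -0.025. Array weights gave 0.017 for Ucp3 in males. Ucp2 between the sexes over both treatments became 0.14 with slide as a fixed block, with scan session as a block, without slide 4 and with slides 1 and 2 alone, 0.069 with slide as a random block and 0.043 with the mean of its probes.

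For the members past the threshold between the sexes over both treatments (2), normexp correction, no filter, no trial term, the trial by source name, slide as a random block and scan session as a block each gave 1, slide as a fixed block, no slide 4 and slides 1 and 2 alone gave 0, and trial 1 arrays alone gave 4. In place of 0 members, slide as a random block gave 1 in the mean of both sexes and 2 in males of trial 2, the trial by source name gave 1 between the sexes in meth hearts, and array weights gave 1 in males, 1 between the sexes in PBS hearts, 1 in males of trial 1 and 3 in males of trial 2. Members whose groups did not overlap between meth and PBS (1 in each sex) numbered 0 in males with normexp correction or quantile normalization, 2 with a shift by the median and 4 with trial 1 arrays alone. In females they were 2 with normexp correction or without slide 4 and 0 with a shift by the median. Trial 1 arrays alone in males, and no slide 4 in females, leave 2 meth against 2 PBS arrays, which separate more easily than larger groups. The share of all probes is not given for these settings, so the counts are not read as stronger separations.

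Genes past the threshold in the pathway lists other than the clock were 3 in males, 1 in females and 7 in the mean of both sexes. In males they were 1 with normexp correction or male arrays alone, 0 with trial 1 arrays alone, slides 1 and 2 alone or the methods' paired or unpaired test, 6 with slide as a fixed block or scan session as a block, 7 with slide as a random block and 14 with array weights. In females they were 0 with normexp, quantile normalization, no filter, no trial term, the trial by source name, trial 1 arrays alone, array weights, female arrays alone, no slide 4, slides 1 and 2 alone, either of the methods' tests or the mean of a gene's probes, 2 with the filter on all arrays and 3 with slide (fixed or random) or scan session as a block. In the mean of both sexes they were 1 with normexp or trial 1 arrays alone, 4 with no filter, no trial term or no slide 4, 12 with slide as a random block, 13 with scan session as a block and 0 with slides 1 and 2 alone.

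Leaving out each replicate in turn, the members past the threshold ranged from 0 to 4 between the sexes over both treatments, from 0 to 2 between the sexes in meth hearts, from 0 to 1 in the mean of both sexes and from 0 to 1 in males of trial 2. Members without overlap ranged from 1 to 4 in males and from 1 to 2 in females. Groups with 1 array fewer separate more easily, and the share of all probes is not given for them. Pathway list genes ranged from 0 to 4 in males, 0 to 0 in females and 4 to 8 in the mean of both. Male differences ranged from -0.23 to 0.22 for Ucp3 and from -0.15 to 0.45 for Angptl4, and female ones from -0.37 to 0.0027 for Pdk4, -0.018 to 0.33 for Ucp2 and -0.011 to 0.29 for Txnip. The male response minus the female response ranged from -0.12 to 0.34 for Ucp3 and -0.047 to 0.15 for Acot2, and the mean of both sexes from -0.17 to 0.055 for Ucp3. Between the sexes in meth hearts Pdk4 ranged from -0.13 to 0.48 and Ucp2 from -0.088 to 0.20, and over both treatments Ucp2 from -0.20 to 0.0057. In trial 1 Pdk4 ranged from -0.14 to 0.41 and Acot2 from -0.097 to 0.11, in trial 2 Ucp2 from -0.0078 to 0.29 and Txnip from -0.28 to 0.43, and in male PBS hearts of trial 2 against trial 1 Ucp3 from -0.28 to 0.038 and Txnip from -0.39 to 0.14. Where an array left 1 heart in a group of a trial, that heart was assumed to vary like the others. The comparison of the sexes over both treatments, the fit without slide 4 and the fit of slides 1 and 2 alone were added after the data were seen.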
